A study of Mus musculus with 6 samples.

Results

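The 35 genes described here are targets of the tumour suppressor p53 and regulators of apoptosis, taken by a fixed list of symbols. The list was drawn up with earlier results of these data known. Every non-control probe whose RefSeq accession gave one of these symbols was taken, which found 46 probes covering all 35 genes, of 39429 probes and 32451 genes and unnamed transcripts on the array. The cells were MIN6B1, a subclone of the mouse insulinoma line MIN6 that still secretes insulin in response to glucose. They were transfected with Lipofectamine and either an siRNA against green fluorescent protein (siGFP, the control, 3 samples) or an siRNA against circHIPK3 (si circHIPK3, 3 samples), a circular RNA that arises by back-splicing of Hipk3 transcripts, and total RNA was taken after 48 h. Both groups shared the cell line, the medium and the transfection, and no untransfected cells were analysed here. The labels do not say that replicates were separate cultures, so a p-value here weighs a difference against the spread of 6 samples that may differ only technically. RNA of 1 sample was labelled in 1 colour and read on 1 Agilent array.

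In p53 signalling, DNA damage and other stress stabilise the transcription factor p53, which its own target Mdm2 otherwise marks for degradation. Its targets divide into genes that hold the cell cycle, among them the p21 gene Cdkn1a, genes of metabolism and repair, and genes that promote death. Apoptosis through mitochondria is set by the Bcl-2 family: BH3-only proteins activate Bax and Bak, which release cytochrome c, and cytochrome c assembles Apaf1 and caspase-9, while Bcl-2, Bcl-xL and Mcl-1 hold Bax and Bak in check and the inhibitor of apoptosis proteins restrain caspases. MIN6 cells come from an insulinoma of mice that carried the large T antigen of simian virus under the insulin promoter, a viral protein that binds p53, so p53 signalling in this line need not be that of a normal beta cell. The large T antigen was not analysed here.

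Signals are given as the log2 processed intensity minus the log2 of the array's 75th percentile, so that 0 is the 75th percentile of that array, and changes are si circHIPK3 minus siGFP on this scale with the SE (standard error) that limma fitted. The 75th percentile lay between 2939 and 3669 intensity units, and between 77.7% and 83.5% of probes per array passed the scanner's background test. By the file headers, si circHIPK3 replicate 1 and the 3 siGFP arrays were scanned together, and si circHIPK3 replicates 2 and 3 in another scan in which array positions recur, so that the arrays lay on 2 slides. All 10 beta cell markers examined, Ins1, Ins2 and Pdx1 among them, were well above background on all 6 arrays. So were all 12 markers of other cells, among them Gcg, the glucagon gene. Some of these were dim, with 40.1 to 89.5 intensity units for Krt19, 42.3 to 76.0 for Col3a1 and 63.6 to 87.6 for Cela1. Gcg gave 37226 to 99589 units. The summed signal of the beta cell markers was 457 to 500 times the 75th percentile in siGFP and 427 to 484 times in si circHIPK3. That of the markers of other cells was 16.6 to 30.4 and 11.5 to 21.1 times. Gcg was the brightest of those 12 on every array and changed by -0.59 ± 0.30 (SE), with overlapping groups. Of the same 12 markers 8 had a change above 0 and 4 below, with a median of 0.22. The median over all genes was 0.08, but in the quartile with the lowest signal it reached 0.28. Since some of the 12 were dim, their median does not show whether RNA of other cells rose. The part of these marker differences in the results below was not tested. With 6 arrays, their number limits the precision.

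Of the 35 genes, 33 had a probe that was well above background, and the brightest probe of each was well above background on all 6 arrays. Of these 33, 3 passed the test (limma, Benjamini-Hochberg adjusted p under 0.05, adjusted over the 25777 genes and unnamed transcripts tested). Of all those tested 1.18% passed, 0.535% higher and 0.64% lower. Cdkn1a and Ccng1 fell and Btg2 rose, and all 3 belong to the 4 arrest genes of the set. The roles, like the list, were assigned with earlier results of these data known, so this concentration is a description only. The other 30 did not pass, although 6 of the 33, against 21.1% of all tested, had an unadjusted p under 0.05. Groups did not overlap for 10 of the 33, 6 of them higher and 4 lower, where 25.9% of all genes did not overlap, 16.6% higher and 9.38% lower. The median change of the 33 was 0.02 and that of all genes 0.08. The split of all called genes between directions depended on scaling, with 138 higher and 165 lower here, 42 and 202 (0.947% of genes) under quantile normalization and 204 and 403 (2.35%) with each array's median in place of its 75th percentile, whereas the set had the same 3 genes called in each. In bulk RNA, fewer cells of a kind and less RNA per cell cannot be told apart.

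**Figure D1:**
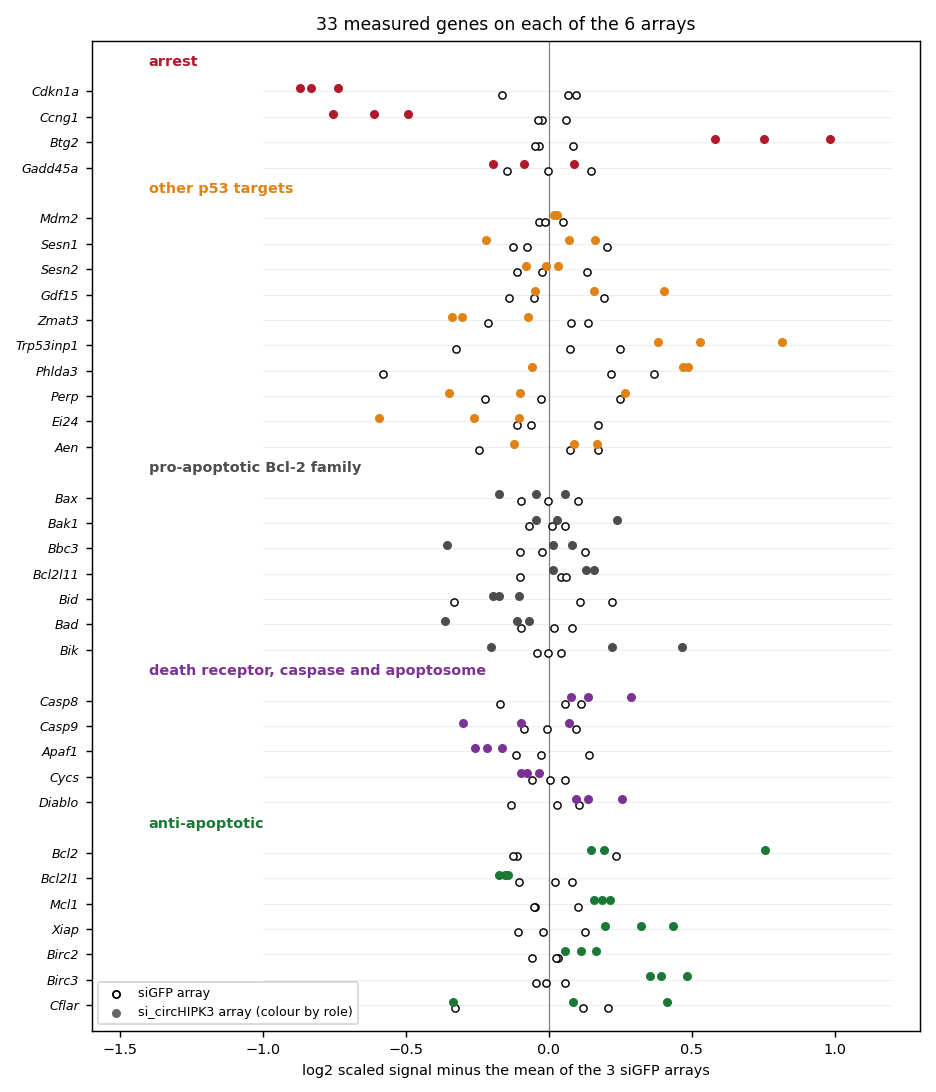
Log2 scaled signal of the 33 measured genes on each of the 6 arrays, minus the mean of the 3 siGFP arrays of that gene, so that 0 on the horizontal axis is the siGFP mean. Open circles are siGFP arrays and filled circles are si circHIPK3 arrays, coloured by role; the groups stand well apart for Cdkn1a, Ccng1 and Btg2, and 10 of the 33 genes have groups that do not overlap.

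The arrest genes slow or stop division. Cdkn1a encodes p21, the inhibitor of cyclin-dependent kinases through which p53 stops cells before DNA replication. Its brightest probe gave 0.19, 0.42 and 0.45 on the siGFP arrays and -0.38, -0.47 and -0.51 on the si circHIPK3 arrays. Every si circHIPK3 array lay below every siGFP array, and the 3 si circHIPK3 values were close together. Cdkn1a fell by 0.81 ± 0.11 (SE) on the log2 scale, from 0.36 ± 0.14 (SD, n = 3) to -0.46 ± 0.07 (SD, n = 3), which is 1.76-fold (limma adjusted p = 0.0326). A second, dimmer probe, annotated to another Cdkn1a transcript, gave -3.04, -4.16 and -3.27 in siGFP and -4.48, -4.78 and -4.24 in si circHIPK3. Its groups did not overlap either, but its siGFP values were further apart, and its change of -1.01 ± 0.29 (SE) did not pass (limma adjusted p = 0.122 over 31380 probes, of which 1.34% passed).

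Ccng1 encodes cyclin G1, an atypical cyclin induced by p53 that acts with a phosphatase on Mdm2. It measured 1.03, 1.01 and 1.11 in siGFP and 0.44, 0.30 and 0.56 in si circHIPK3. The siGFP arrays were almost level and all 3 si circHIPK3 arrays lay below them. Ccng1 fell by 0.62 ± 0.11 (SE), from 1.05 ± 0.05 (SD, n = 3) to 0.43 ± 0.13 (SD, n = 3), or 1.54-fold (limma adjusted p = 0.0490). Btg2 encodes an antiproliferative protein that recruits the deadenylase complex and is also an immediate early gene. It measured 1.53, 1.52 and 1.66 in siGFP and 2.32, 2.15 and 2.55 in si circHIPK3, so that the groups were separate and the direction was opposite to that of Cdkn1a and Ccng1. Btg2 rose by 0.77 ± 0.13 (SE), from 1.57 ± 0.07 (SD, n = 3) to 2.34 ± 0.20 (SD, n = 3), or 1.71-fold (limma adjusted p = 0.0468). Gadd45a, whose product links growth arrest to stress kinases, measured 4.06, 3.77 and 3.91 in siGFP and 4.004, 3.72 and 3.83 in si circHIPK3, which overlap, with a change of -0.06 ± 0.12 (SE, limma adjusted p = 0.786). For Cdkn1a, Ccng1 and Btg2 a two-sided exact permutation test of the 6 values gave 0.10, the smallest p that 3 against 3 arrays allow.

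The calls of all 3 arrest genes were lost on leaving out any one array except si circHIPK3 replicate 1. Without siGFP replicate 1, 2 or 3, or without si circHIPK3 replicate 3, no gene of the array passed (limma; 3346 to 5068 at an unadjusted p under 0.05), and without si circHIPK3 replicate 2 a single gene did (0.00388%). The limma adjusted p of the 3 arrest genes then lay between 0.0779 and 0.195. Without si circHIPK3 replicate 1, where the groups lie on separate slides, all 3 passed, as did 6.74% of all genes. The sizes moved little: over the 6 settings with an array left out, the change was -0.89 to -0.77 for Cdkn1a, -0.68 to -0.55 for Ccng1 and 0.67 to 0.87 for Btg2. Within the slide that holds both groups, which sets si circHIPK3 replicate 1 against the 3 siGFP arrays, the changes were -0.74 ± 0.16, -0.61 ± 0.14 and 0.75 ± 0.14 (SE). With slide as a fixed block they were -0.74 ± 0.16, -0.61 ± 0.16 and 0.75 ± 0.19 (SE). The other slide holds only si circHIPK3 arrays, so the fixed block takes its changes from the shared slide. Their equal size was fixed by the design, and both rest on 1 si circHIPK3 array. No gene of the array was called in either fit (limma, 2872 and 2677 at an unadjusted p under 0.05), so the adjusted p of the 3 genes there lay between 0.185 and 0.239. With slide as a random block Cdkn1a passed (limma adjusted p = 0.0434), while Ccng1 and Btg2 did not (0.0620 and 0.0594), and 0.481% of all genes passed. None of the 3 passed without the filter on dim probes (limma adjusted p = 0.0752 to 0.0889), where no gene of the array passed either. The 3 were called with normexp background correction (1.37% of all genes), with genes above background on all 6 arrays (0.97%), with the mean over the probes of a gene (1.11%) and with trend and robust variance (2.41%). Array weights added Birc3, at 6.05% of all genes, and in the deposited value table (0.707%) Ccng1 had an adjusted p of 0.0560 (limma). Over all 20 alternatives the limma adjusted p ran from 0.00456 to 0.229 for Cdkn1a, from 0.0107 to 0.239 for Ccng1 and from 0.00689 to 0.231 for Btg2.

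**Figure D2:**
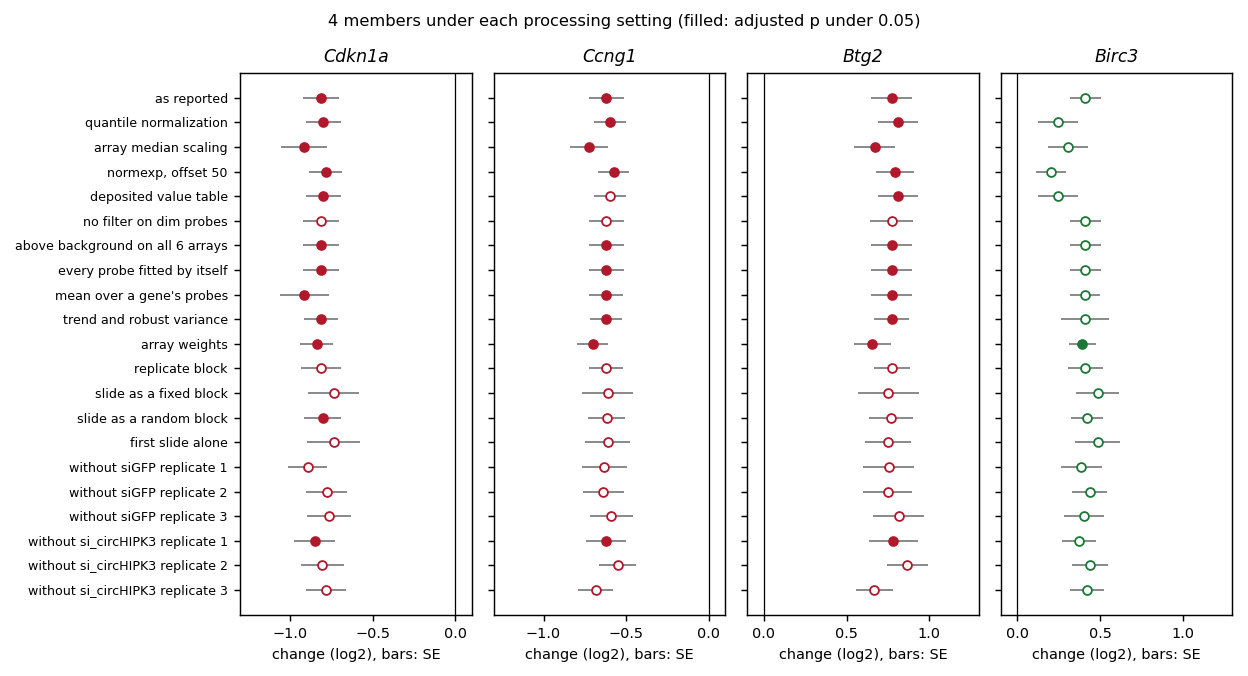
Change of Cdkn1a, Ccng1, Btg2 and Birc3 (log2, si circHIPK3 minus siGFP) as reported and under 20 other settings, with limma SE as bars and filled circles where the adjusted p was under 0.05. The direction of each gene was the same in every setting shown, but settings that refit the same values or leave out an array could not reverse it. Cdkn1a passed in 11, Btg2 in 10, Ccng1 in 9 and Birc3 in 1 of the 20 other settings.

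The sequences upstream of the start sites of the 3 genes that passed are shown because p53 acts on its targets through sites near the gene. They are the 250 bases before each start, 5′ to 3′ on the gene's strand, from RefSeq on GRCm38.p6. The arrays' files name another build, so no probe position is given. Capitals mark every match on either strand to the consensus p53 half-site, to the TATA box letters TATAAA, to the Sp1-type GC box letters GGGCGG and to the core letters of the cAMP response element, TGACGT. Cdkn1a has 2 starts in the table, on chromosome 17 at chr17:29090729-29090978 and chr17:29093519-29093768, both on the plus strand. Ccng1 lies on chromosome 11 at chr11:40755287-40755536 and Btg2 on chromosome 1 at chr1:134079156-134079405, both on the minus strand.
Cdkn1a, first start: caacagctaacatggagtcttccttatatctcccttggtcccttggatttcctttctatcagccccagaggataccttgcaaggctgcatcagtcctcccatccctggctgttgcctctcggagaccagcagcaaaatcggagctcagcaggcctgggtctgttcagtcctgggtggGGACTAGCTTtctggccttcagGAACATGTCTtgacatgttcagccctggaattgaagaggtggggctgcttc
Cdkn1a, second start: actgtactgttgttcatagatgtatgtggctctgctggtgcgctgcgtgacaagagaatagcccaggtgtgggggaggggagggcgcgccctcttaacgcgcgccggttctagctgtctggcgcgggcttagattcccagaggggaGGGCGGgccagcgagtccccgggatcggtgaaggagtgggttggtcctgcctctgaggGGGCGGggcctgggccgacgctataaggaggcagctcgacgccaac
Ccng1: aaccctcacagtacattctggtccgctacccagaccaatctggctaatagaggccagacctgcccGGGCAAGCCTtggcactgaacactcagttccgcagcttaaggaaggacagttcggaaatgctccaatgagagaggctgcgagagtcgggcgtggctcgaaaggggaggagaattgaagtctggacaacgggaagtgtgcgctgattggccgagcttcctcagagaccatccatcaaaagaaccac
Btg2: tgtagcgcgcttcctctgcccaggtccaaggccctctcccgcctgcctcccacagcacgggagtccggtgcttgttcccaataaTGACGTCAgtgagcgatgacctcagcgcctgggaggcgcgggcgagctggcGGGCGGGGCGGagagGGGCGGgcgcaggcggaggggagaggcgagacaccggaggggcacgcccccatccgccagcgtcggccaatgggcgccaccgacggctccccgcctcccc

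The first Cdkn1a window held 2 half-site matches, GGACTAGCTT from 73 to 64 and GAACATGTCT from 51 to 42 bases before the start, and the second held 2 GGGCGG matches. The Ccng1 window held 1 half-site match, GGGCAAGCCT, from 185 to 176 bases before the start. The Btg2 window held no half-site match, 3 GGGCGG matches of which a pair overlapped, and TGACGTCA, which matches TGACGT on both strands. Of the 35 genes, 30 had an entry, with 43 windows in all. A half-site match stood in 8 of the 43 windows (18.6%), against 7.13% of 32851 windows of the table, and these belonged to Aen, Bax, Ccng1, Cdkn1a, Ei24, Gadd45a, Mdm2 and Sesn1. Of those 8 genes, Cdkn1a and Ccng1 fell and the other 6 did not pass, with changes from -0.32 for Ei24 to 0.05 for Aen. GGGCGG stood in 62.8% of the 43 windows against 32.7% of all, TGACGT in 11.6% against 6.47%, and TATAAA in 4.65% against 12.4%. These are matches of letters and not measured sites. Trp53inp1, Zmat3, Perp, Bik and Pmaip1 had no entry.

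Among the 10 other p53 targets none rose or fell at the threshold (limma), where 1.18% of all genes did. Of the 10, 1 had an unadjusted p under 0.05 (limma), against 21.1% of all genes, and their median change was 0.01. Mdm2, the ubiquitin ligase of the feedback loop on p53, measured 2.56, 2.47 and 2.50 in siGFP and 2.54, 2.53 and 2.53 in si circHIPK3. These ranges overlap, and the change was 0.02 ± 0.09 (SE, limma adjusted p = 0.902), one of the smallest of the set. Trp53inp1, which encodes a p53 cofactor that promotes autophagy and death, had the largest difference of these 10. Its brightest probe measured 0.50, 0.67 and 0.10 in siGFP and 1.24, 0.95 and 0.81 in si circHIPK3, and its dimmer probe -2.98, -2.98 and -3.01 against -2.62, -2.73 and -2.57. All si circHIPK3 arrays lay above all siGFP arrays by both probes. The changes of 0.58 ± 0.18 and 0.35 ± 0.09 (SE) did not pass (limma adjusted p = 0.146 over genes and 0.107 over probes).

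Zmat3, which encodes an RNA-binding zinc finger protein, measured 0.75, 0.40 and 0.69 in siGFP and 0.31, 0.27 and 0.54 in si circHIPK3, a difference of -0.24 ± 0.13 (SE, limma adjusted p = 0.328). Ei24, an endoplasmic reticulum membrane protein gene, measured -0.73, -0.97 and -1.02 against -1.17, -1.50 and -1.01, a difference of -0.32 ± 0.15 (SE, limma adjusted p = 0.270), and of -0.18 ± 0.14 (SE) without si circHIPK3 replicate 2. In both genes the groups overlapped through a single array. The sestrin genes Sesn1 and Sesn2, whose products restrain mTOR complex signalling, gave changes of 0.0046 ± 0.14 and -0.02 ± 0.10 (SE). Phlda3, which encodes a competitor of Akt for membrane lipid, gave 0.30 ± 0.27 (SE), with siGFP arrays spread from -2.85 to -1.90 and si circHIPK3 arrays from -2.32 to -1.78, and 0.0076 ± 0.19 (SE) without siGFP replicate 2, its lowest array. The cytokine gene Gdf15 gave 0.17 ± 0.15 (SE), the membrane protein gene Perp -0.06 ± 0.19 (SE) and the nuclease gene Aen 0.05 ± 0.14 (SE), all with overlapping groups. The adjusted p of these 6 lay between 0.523 and 0.989 (limma).

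The pro-apoptotic members of the Bcl-2 family had the smallest median absolute change of the 5 roles, 0.10. None of the 7 that were measured passed, none had an unadjusted p under 0.05 (limma), and the groups overlapped for all 7. Of all genes 1.18% passed, 21.1% had an unadjusted p under 0.05 (limma) and 25.9% did not overlap. With 7 genes these counts say little about the family. Bax, an effector that forms pores in the mitochondrial outer membrane, measured 2.46, 2.35 and 2.25 in siGFP and 2.41, 2.31 and 2.18 in si circHIPK3, a change of -0.05 ± 0.11 (SE, limma adjusted p = 0.801). Bak1, the other effector, measured 0.73, 0.65 and 0.77 against 0.75, 0.96 and 0.67, a change of 0.07 ± 0.11 (SE). For both effectors the arrays of the 2 groups were interleaved.

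Bbc3, which encodes the BH3-only protein Puma, measured 0.96, 0.81 and 0.73 in siGFP and 0.92, 0.85 and 0.48 in si circHIPK3, a change of -0.09 ± 0.14 (SE). Bcl2l11, which encodes Bim, gave 0.10 ± 0.10 (SE) and Bid, which caspase-8 cleaves to link death receptors to mitochondria, gave -0.16 ± 0.15 (SE). The siGFP arrays of Bid were spread from -3.24 to -2.69 and enclosed the si circHIPK3 arrays, which ran from -3.10 to -3.01. Bad, which growth factor signalling holds inactive by phosphorylation, gave -0.18 ± 0.12 (SE) by its brightest probe and 0.23 ± 0.19 (SE) by its dimmer one, so that its probes disagreed in sign. Bik lay close to background, at 30.9 to 37.5 intensity units in siGFP and 32.8 to 49.8 in si circHIPK3, with a change of 0.16 ± 0.17 (SE). Pmaip1, which encodes the BH3-only protein Noxa, was not well above background on any array, with an intensity of 4.4 to 5.6 units, and was not tested.

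Among the genes of the death receptor, the caspases and the apoptosome, none of the 5 measured passed and none had an unadjusted p under 0.05 (limma). The shares over all genes were 1.18% and 21.1%. Fas, the death receptor gene, was well above background on none of the 3 siGFP arrays and on 2 of the 3 si circHIPK3 arrays, so it failed the filter and has no fold. Its intensities were 20.9, 14.9 and 18.2 units in siGFP and 18.7, 24.8 and 29.8 in si circHIPK3, and the groups overlapped. Casp8, the initiator caspase of death receptors, gave 0.17 ± 0.12 (SE) and Casp9, the initiator of the apoptosome, -0.11 ± 0.12 (SE), both with overlapping groups. Apaf1, the scaffold of the apoptosome, measured -1.33, -1.16 and -1.42 in siGFP and -1.56, -1.52 and -1.47 in si circHIPK3. It was the only one of these genes whose groups were separate, with a change of -0.21 ± 0.10 (SE, limma adjusted p = 0.282).

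Cycs, which encodes cytochrome c, was read by 3 probes, and their changes were -0.07 ± 0.09, -0.14 ± 0.11 and -0.11 ± 0.11 (SE). Diablo, whose product frees caspases from their inhibitors, gave 0.16 ± 0.11 and 0.14 ± 0.13 (SE) by its 2 probes. Within each of these genes the probes had the same sign, none passed, and the groups overlapped for each probe.

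None of the 7 anti-apoptotic genes passed either (limma), where 1.18% of all genes did. An unadjusted p under 0.05 (limma) was found for 2 of them, against 21.1% of all genes. On every si circHIPK3 array 4 of the 7 lay higher than on any siGFP array, and 1 lay lower. Over all genes 16.6% were separate in the higher and 9.38% in the lower direction. The 4 were Birc3, Birc2 and Xiap, which encode inhibitor of apoptosis proteins, and Mcl1, a short-lived Bcl-2 relative that holds Bak in check. Birc3 measured -4.80, -4.70 and -4.77 in siGFP and -4.27, -4.40 and -4.36 in si circHIPK3, with a change of 0.41 ± 0.09 (SE, limma adjusted p = 0.0799). Xiap measured 0.62, 0.86 and 0.71 against 1.16, 1.05 and 0.92, with a change of 0.32 ± 0.11 (SE, limma adjusted p = 0.179). The arrays of Birc3 were tight within each group, and those of Xiap nearly met between groups.

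Mcl1 measured 1.97, 1.96 and 2.12 in siGFP and 2.23, 2.20 and 2.17 in si circHIPK3, a change of 0.19 ± 0.09 (SE, limma adjusted p = 0.296), and its second probe gave 0.12 ± 0.10 (SE) with overlapping groups. Birc2 measured 1.03, 1.02 and 0.94 against 1.16, 1.05 and 1.11, a change of 0.11 ± 0.09 (SE, limma adjusted p = 0.504). Bcl2l1, which encodes Bcl-xL, went the other way, at 2.24, 2.11 and 2.30 in siGFP and 2.06, 2.07 and 2.04 in si circHIPK3. Its change was -0.16 ± 0.10 (SE, limma adjusted p = 0.366), and its dimmer probe gave 0.0078 ± 0.23 (SE), so the separation of its groups was seen by 1 of 2 probes. Bcl2 itself measured -2.03, -2.37 and -2.39 against -2.07, -2.11 and -1.51, a change of 0.37 ± 0.19 (SE) in which si circHIPK3 replicate 3 stood highest, and 0.17 ± 0.14 (SE) without that array. Cflar encodes c-FLIP, a catalytically inactive relative of caspase-8, and its 3 probes disagreed: the brightest gave 0.05 ± 0.22 (SE) and another 0.19 ± 0.22 (SE), with overlapping groups, whereas the remaining one measured -1.57, -1.70 and -1.84 in siGFP and -2.21, -2.03 and -2.08 in si circHIPK3. That probe, annotated to another transcript than the other two, had separate groups and a change of -0.40 ± 0.11 (SE, limma adjusted p = 0.117 over probes).

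**Figure D3:**
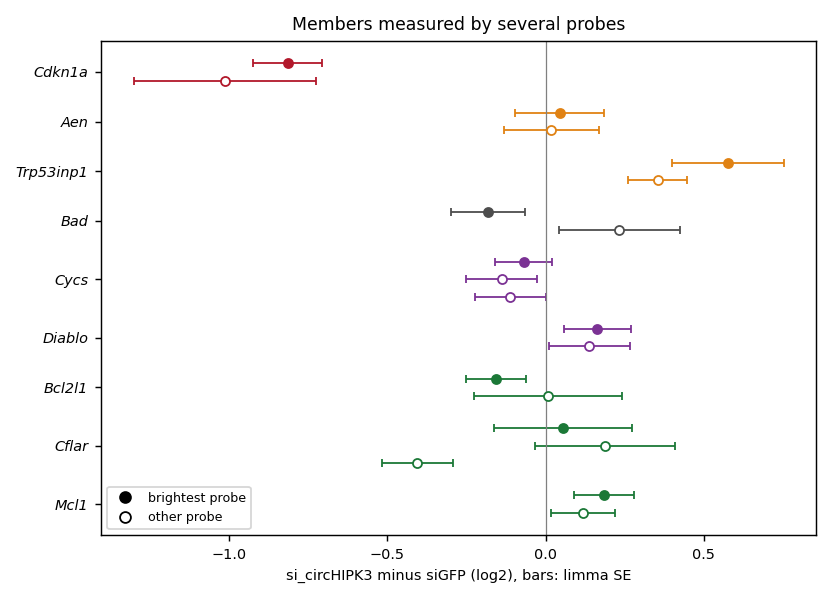
Change of each kept probe (log2, si circHIPK3 minus siGFP, bars are the limma SE) for the 9 genes read by several probes, with the brightest probe filled. The probes of Bad, Bcl2l1 and Cflar differ in sign, and those of the other 6 genes have the same sign.

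The medians of the arrest, pro-apoptotic and anti-apoptotic genes are set side by side as a description, with no test. The arrest genes had a median change of -0.34, the 12 measured pro-apoptotic genes of both groups -0.06, and the 7 anti-apoptotic genes 0.19, beside 0.08 for all genes. Of the 4 arrest genes 1 lay above the median of all genes, as did 4 of the 12 pro-apoptotic and 5 of the 7 anti-apoptotic genes. Replacing the 75th percentile by the array median shifted the median of all genes from 0.08 to -0.02, so the group medians are also given relative to it. On that basis the arrest genes stood at -0.43, the pro-apoptotic Bcl-2 family at -0.14, the death receptor, caspase and apoptosome genes at -0.15, the other p53 targets at -0.07 and the anti-apoptotic genes at 0.10. Under quantile normalization the same 5 values were -0.36, -0.10, -0.10, -0.01 and 0.19. The median over 4 arrest genes joins 2 that fell, 1 that rose and 1 that did not pass.

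Changes also went with signal level over the whole array. The median change was 0.28 for the dimmest quartile of tested genes and 0.15, 0.02 and -0.0098 for the next 3, and 28.5% of the dimmest quartile lay higher on every si circHIPK3 array against 9.15% of the brightest. Birc3 and Bik lay in the dimmest quartile and 15 of the 33 genes in the brightest. Set against the median of its own quartile, the change of Birc3 was 0.13, that of Xiap 0.33, and those of Cdkn1a, Ccng1 and Btg2 were -0.84, -0.64 and 0.78. The difference of Birc3 was 0.25 under quantile normalization and 0.20 with normexp, and 0.48 ± 0.13 (SE) within the shared slide, with a limma adjusted p of 0.0402 to 0.338 over the 20 alternatives. By the same measure 6 of the 7 anti-apoptotic genes lay above the median of their quartile. Of the 7 pro-apoptotic Bcl-2 family genes 6 lay below theirs. So did 3 of 5 death receptor, caspase and apoptosome genes, 3 of 4 arrest genes and 5 of 10 other p53 targets. Relative to the quartile medians, the median of the arrest genes was -0.35, of the pro-apoptotic Bcl-2 family -0.078 and of the anti-apoptotic genes 0.13. That of the death receptor, caspase and apoptosome genes was -0.059 and that of the other p53 targets 0.0039. A quartile's median has as many genes above it as below, and these counts and medians were not tested.

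**Figure D4:**
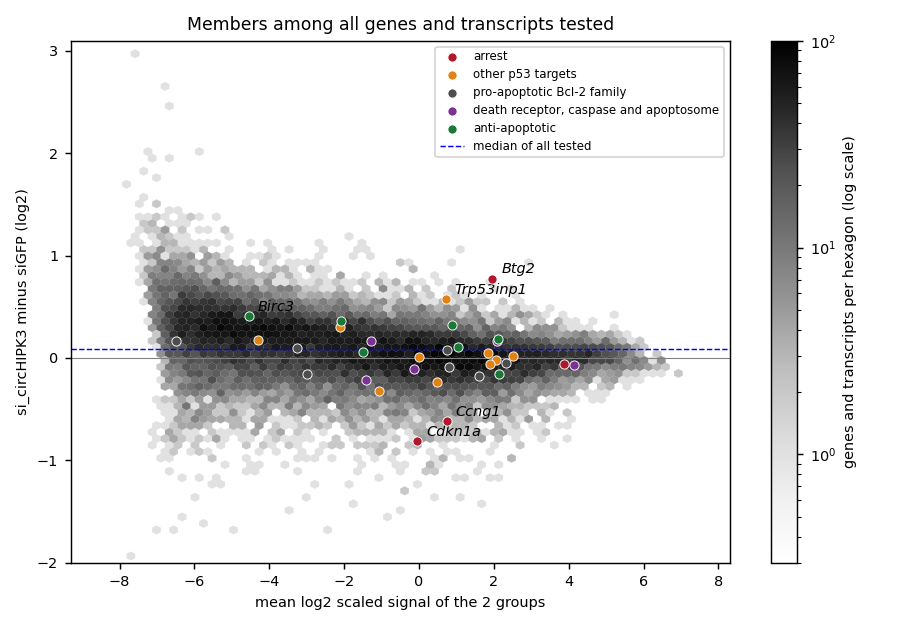
Change (log2, si circHIPK3 minus siGFP) against the mean log2 scaled signal of the 2 groups, for the 33 genes coloured by role over all 25777 genes and transcripts tested, shaded by number on a log scale. The dashed line is the median of all tested, 0.08; Cdkn1a and Ccng1 lie at the lower edge of the cloud and Btg2 at its upper edge, while Birc3 lies at the dim end, where the cloud itself is higher.

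Other genes of the pathway, in lists written with earlier results of these data known, were counted for context. Over all 25777 genes 1.18% passed and 21.1% had an unadjusted p under 0.05 (limma), 3766 of them higher and 1678 lower. Of 20 measured genes for p53 and its regulators none passed (limma; 3 had an unadjusted p under 0.05, all higher), and the median change was 0.01. Trp53, the gene of p53 itself, measured -2.37, -2.15 and -2.08 in siGFP and -2.26, -2.37 and -2.12 in si circHIPK3, a change of -0.05 ± 0.12 (SE) with overlapping groups. Of 28 measured further p53 targets none passed (limma; 4 higher and 1 lower at an unadjusted p under 0.05), with a median of 0.11, and of 31 further genes of the apoptosis machinery none passed (limma; 1 higher and 2 lower at an unadjusted p under 0.05), with a median of -0.02. Among 20 cell cycle genes that p53 is known to repress through p21, 2 fell and none rose, where 0.64% of all genes fell and 0.535% rose: Cks1b, which encodes a small subunit of cyclin-dependent kinases, by 0.72 ± 0.12 (SE) and Ccnb1, which encodes cyclin B1, by 0.75 ± 0.13 (SE, limma adjusted p = 0.0490 for both). Neither call held where no gene of the array passed, as with slide as a fixed block, which is so for any gene. Their adjusted p in the other settings is not given here. The median of that list was -0.08, and 18 of its 20 genes lay below the median of all genes. Most of the list was bright, and the median change of the brightest quartile of tested genes was -0.0098. A change below 0 was found for 16 of the 20 and above 0 for 4.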

How the data were processed

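Total RNA of 6 MIN6B1 samples, 3 per group, was read on single-colour Agilent arrays. The deposited scanner files hold a background-subtracted intensity per spot from Agilent Feature Extraction 11.0.1.1, a version the submitters' processing notes also give, not scaled between arrays per the file headers. A deposited table of log2 values of 31868 probes, whose normalization is not given in the sources used here, served as an alternative. Its columns have medians of 9.7965 to 9.7968 and correlate at 0.9999 or above with the scanner values of their array, so the direction is as measured. They correlate at 0.999988 to 0.999996 with the quantile-normalized values, and Cdkn1a changed by -0.80 in both. The value table is thus no separate check beside quantile normalization.

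Spots with a non-uniformity or population outlier mark were dropped, spots of a probe were averaged, and probes well above background on all 3 arrays of a group were kept (31380 of 39429). Symbols came from RefSeq accessions on GRCm38.p6, for 27234 probes. The brightest kept probe stood for a gene. Group was the only term in limma 3.58.1 (R 4.3.3, lmFit and eBayes), with Benjamini-Hochberg adjustment over all 25777 genes; other probes were fitted over all 31380. The procedure was tested on simulated data. Figures used matplotlib 3.10.9. The genes, lists and roles were chosen with earlier results of these data known. All 35 genes are named; of the further lists, counts are given and genes past the threshold named, and Trp53 in addition; the closing observations also name those with an adjusted p between 0.05 and 0.10, chosen after their values were seen. Alternatives covered scaling, background, filter, probe choice, variance, slide, replicate number and each array left out. A planned normexp correction used the median foreground.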

Additional observations from a re-analysis of the deposited data

How the results depend on the processing

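Over 20 alternatives, Cdkn1a and Ccng1 were lower and Btg2 higher in each. Several alternatives refit the same values, and leaving out an array cannot reverse the sign where groups do not overlap. The settings are therefore not 20 separate checks of direction. The number of the 35 genes called was 3 as reported, 4 with array weights (Birc3 added), 2 with the value table, and 0 without the filter on dim probes, with the replicate block, with slide as a fixed block and on the first slide alone, 1 with slide as a random block, and 0 to 3 with an array left out. Over all genes the count of 303 became 607 with array median scaling, 622 with trend and robust variance, 1559 with array weights, 185 in the value table, 124 with slide as a random block, 0 without the filter, with the replicate block, with slide as a fixed block and on the first slide alone (limma; 5631, 5134, 2677 and 2872 at an unadjusted p under 0.05), and 0 to 1737 with an array left out. Same-numbered arrays deviated together at r = -0.02, 0.27 and -0.13 for replicates 1 to 3, and arrays of unlike number at -0.35 to 0.29. With 3 arrays per group these values show no pairing by number and do not settle whether there was one. With the replicate block the adjusted p was 0.0891 for Cdkn1a, 0.0939 for Ccng1 and 0.0866 for Btg2 (limma).

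Array median scaling moved the group medians to -0.45 (arrest), -0.089 (other p53 targets), -0.16 (pro-apoptotic Bcl-2 family), -0.17 (death receptor, caspase and apoptosome) and 0.083 (anti-apoptotic). The anti-apoptotic median was 0.23 with quantile normalization, 0.22 in the value table, 0.15 with the mean over probes, and 0.16 to 0.25 with an array left out. The pro-apoptotic Bcl-2 median was 0.026 with the mean over probes and 0.029 with slide as a fixed block and on the first slide alone, and the death receptor median was 0.047 without the filter and 0.0091 with array weights.

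Of the 33 genes, 17 kept their sign in every alternative and 16 did not, none of them called, and the largest value of opposite sign was 0.27. With array median scaling these were Aen at -0.058, Bak1 at -0.029, Bcl2l11 at -0.0022, Cflar at -0.049, Mdm2 at -0.080 and Sesn1 at -0.10. With quantile normalization, and alike in the value table, Bcl2l11 lay at -0.018, Bik at -0.11 and Sesn2 at 0.026, and with normexp Bcl2l11 at -0.0099 and Sesn2 at 0.029. With array weights Aen lay at -0.10, Casp9 at 0.0091, Cflar at -0.19, Phlda3 at -0.013 and Sesn2 at 0.032. With the mean over probes Bad lay at 0.026 and Cflar at -0.054. With slide as a fixed block, and alike on the first slide alone, Bax lay at 0.058, Bbc3 at 0.080, Bik at -0.20, Gadd45a at 0.088, Gdf15 at -0.047 and Perp at 0.27. With an array left out the ranges were -0.077 to 0.13 (Aen), -0.0076 to 0.13 (Bak1), -0.11 to 0.0072 (Bax), -0.17 to 0.047 (Bbc3), -0.13 to 0.25 (Cflar), -0.14 to 0.010 (Gadd45a), -0.22 to 0.083 (Perp), -0.074 to 0.12 (Sesn1) and -0.074 to 0.047 (Sesn2). Signal over background limits the dim probes, that of Bik among them. The cause of these differences was not tested.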

Other observations

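In the further lists of p53 and apoptosis genes, 5 genes outside the 35 had an adjusted p between 0.05 and 0.10 and were singled out after their values were seen. Bmf, which encodes a BH3-only protein, measured -1.55, -1.08 and -1.34 in siGFP and -0.53, -0.61 and -0.78 in si circHIPK3, a difference of 0.69 ± 0.14 (SE, limma adjusted p = 0.0644). Bcl2l2, which encodes the anti-apoptotic protein Bcl-w, measured 2.35, 2.22 and 2.22 against 1.74, 1.92 and 1.92, a difference of -0.40 ± 0.10 (SE, limma adjusted p = 0.0987). Both differences ran opposite to the median of the genes of their kind in the set, where the pro-apoptotic Bcl-2 family lay at -0.05 and the anti-apoptotic genes at 0.19. Rap2b, which encodes a small GTPase, gave 0.53 ± 0.11 (SE, limma adjusted p = 0.0619). Ddit4, a stress-induced inhibitor of mTOR signalling, gave 0.65 ± 0.16 (SE, limma adjusted p = 0.0922), and the checkpoint kinase gene Chek1 gave 0.62 ± 0.16 (SE, limma adjusted p = 0.0988). The groups did not overlap for any of these 5 genes, but the genes were chosen by their adjusted p on the same values. The 25.9% of all genes whose groups did not overlap is therefore no measure for them.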
